A study of Drosophila melanogaster with 3 samples.

Results

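Transfer RNA (tRNA) genes were examined for Plzf-eGFP chromatin regions near their starts. They were all 290 genes that Ensembl gives the biotype tRNA on the arms 2L, 2R, 3L, 3R, 4 and X of the Drosophila melanogaster release 6 assembly (dm6), out of 18164 annotated genes there with transposable elements left out. Arm 2R held 98 of them, 3R held 79, 3L held 48, 2L held 41 and X held 24, and arm 4 held none. The choice used the annotation and no measured value. A gene was counted as marked when the summit of a region lay within 500 bp of its start, the 5′ end on its own strand.

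The study was a chromatin immunoprecipitation and sequencing (ChIP-seq) experiment on whole prepupae, the stage at the onset of metamorphosis, of mixed sex and unknown age. All animals came from a transgenic line stably expressing Plzf, the zinc finger protein encoded by CG6792, with GFP at its C terminus. The IP was directed against GFP, whereas the labels list CG6792 as the antibody. The series holds 1 group of 3 biological replicates and no second condition, so tRNA genes were compared with other genes and replicates with each other, and no p-value was computed.

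The authors deposited a list of 30000 regions for each replicate and for the pooled replicates, peaks and background together, and an optimal list of 7096 regions thresholded by the irreproducible discovery rate (IDR), which measures how well ranks repeat between replicates. The optimal regions were the 7096 pooled regions of highest signal, the peak height on the scale of its own list, down to 79.6. Read depth is unknown from these lists. Replicate 2 stood apart: 10260 of its regions sat at the ceiling of the −log10 q-value, against 3476 in replicate 1 and 3343 in replicate 3, and its list was the only one of the 5 with regions on the mitochondrial genome. The main shares are therefore also given for each replicate. Counts by copy number, place and arm rest on the pooled and optimal lists alone.

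RNA polymerase III transcribes tRNA genes from a promoter that lies inside the gene. The factor TFIIIC binds the internal A box and B box, and it places TFIIIB just upstream of the start, where TFIIIB recruits the polymerase. Transcription ends in a run of T bases just after the gene, and cells carry many copies of the gene for each amino acid, called an isotype here, often in clusters. In the gene names, the amino acid is followed by the anticodon and by numbers that tell copies apart.

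The genes carried these hallmarks. The B box core GTTCNANNC, searched on the gene's strand, was found in 271 of 290 tRNA genes (93.4%), against 1.48% of 17874 other genes in their first 73 bases. The A box was found in 268 (92.4%), against 1.5% of other genes. The boxes do not overlap, and on the opposite strand the B box core stood in 12 tRNA genes and the A box in 6. A run of at least 4 T within 50 bp after the gene end followed 289 of 290 tRNA genes, against 51.4% of other genes. The genes were 71 to 186 bp long, with a median of 73 bp, covered 22 isotypes and 44 anticodons, and had 95 distinct sequences.

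Sequences of 5 tRNA genes with an optimal summit nearby are shown, with the A box and B box in capitals, because they show where the polymerase III promoter lies relative to the regions described further on. They are on the gene's strand, 5′ to 3′, from the RefSeq genome of dm6.
tRNA:Tyr-GTA-1-8 (chr3R:8669081-8669174, − strand): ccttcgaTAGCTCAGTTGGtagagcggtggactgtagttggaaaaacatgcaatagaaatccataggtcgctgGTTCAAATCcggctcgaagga
tRNA:Gln-TTG-2-1 (chrX:3427452-3427523, − strand): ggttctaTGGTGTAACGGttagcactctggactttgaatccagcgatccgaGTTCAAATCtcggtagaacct
tRNA:Lys-TTT-1-1 (chr2L:8290727-8290799, + strand): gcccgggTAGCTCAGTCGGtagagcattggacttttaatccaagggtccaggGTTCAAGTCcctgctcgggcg
tRNA:Leu-TAA-2-1 (chr3R:24112964-24113047, + strand): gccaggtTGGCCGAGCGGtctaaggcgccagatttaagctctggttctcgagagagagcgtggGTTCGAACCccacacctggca
tRNA:Val-CAC-1-1 (chr3R:17617761-17617833, + strand): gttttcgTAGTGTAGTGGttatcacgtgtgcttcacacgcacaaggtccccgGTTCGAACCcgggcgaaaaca
The A box began at base 8 in all 5 genes. The B box began at base 74 in tRNA:Tyr-GTA-1-8, at base 52 in tRNA:Gln-TTG-2-1, at base 53 in tRNA:Lys-TTT-1-1 and tRNA:Val-CAC-1-1, and at base 64 in tRNA:Leu-TAA-2-1. Tyrosine tRNA genes are known to carry an intron and leucine tRNAs a long variable arm, and these genes were the longest of the 5 at 94 and 84 bp.

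The summits near the same genes stood outside them. The 101 bases around each summit are shown on the + strand, with the summit base in capitals, to set the base composition at the summits beside that of the genes.
summit near tRNA:Tyr-GTA-1-8 (chr3R:8669339-8669439): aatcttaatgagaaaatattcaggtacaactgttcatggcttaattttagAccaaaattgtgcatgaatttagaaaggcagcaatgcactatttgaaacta
summit near tRNA:Gln-TTG-2-1 (chrX:3427678-3427778): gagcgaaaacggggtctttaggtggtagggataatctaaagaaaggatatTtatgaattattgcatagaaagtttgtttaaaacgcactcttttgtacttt
summit near tRNA:Lys-TTT-1-1 (chr2L:8291027-8291127): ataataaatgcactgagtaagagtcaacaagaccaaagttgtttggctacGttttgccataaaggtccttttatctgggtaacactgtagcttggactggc
summit near tRNA:Leu-TAA-2-1 (chr3R:24112708-24112808): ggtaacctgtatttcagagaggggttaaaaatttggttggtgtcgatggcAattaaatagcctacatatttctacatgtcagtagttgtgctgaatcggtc
summit near tRNA:Val-CAC-1-1 (chr3R:17617410-17617510): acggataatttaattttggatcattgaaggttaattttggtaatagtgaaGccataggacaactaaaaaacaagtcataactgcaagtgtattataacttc
GC content was 30.7% around the summit near tRNA:Tyr-GTA-1-8, against 47.9% in that gene. It was 33.7% against 47.2% for tRNA:Gln-TTG-2-1, 40.6% against 58.9% for tRNA:Lys-TTT-1-1, 39.6% against 60.7% for tRNA:Leu-TAA-2-1 and 29.7% against 53.4% for tRNA:Val-CAC-1-1. Each of the 5 summit windows was richer in A and T than its gene, and none held the B box core on either strand. Among all 17 optimal summits near tRNA genes the core was found at 3, described further on, none of them among those shown.

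Few tRNA genes were near an optimal summit, and many were near a weaker pooled one. An optimal summit lay within 500 bp of 21 of 290 tRNA genes, or 7.24% (95% Wilson interval 4.78 to 10.8%, which covers the counting of genes only), against 15.2% of other genes and 4.91% of all arm bases. A pooled summit lay near 139 tRNA genes, or 47.9% (42.2 to 53.7%), against 37.3% of other genes and 18.2% of arm bases. Of the genes with a pooled summit, 15.1% of tRNA genes had one in the optimal list, against 40.7% of other genes. Counting only pooled regions above the list's median signal put tRNA genes as a whole below the others, at 22.1% against 26.3%. In both parts of the split described next, tRNA genes were above the others by this count.

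The presence of a coding transcription start site (TSS) split the tRNA genes. A coding TSS lay within 500 bp of 32 tRNA genes, and of these 10 had an optimal summit (31.25%, interval 17.95 to 48.6%), against 17.0% of other genes with a coding TSS nearby and 13.7% of arm bases that near to one. The other 258 tRNA genes included 11 with an optimal summit (4.26%, interval 2.40 to 7.47%), against 6.93% of other genes without a coding TSS nearby and 3.76% of such arm bases. For pooled summits the shares were 71.9% of tRNA genes beside a coding TSS, against 40.4% of other genes and 36.3% of bases. They were 45.0% (39.0 to 51.1%) of tRNA genes away from coding TSSs, against 23.7% of other genes and 15.9% of bases. Among those other genes, 14 of 29 small nuclear RNA (snRNA) genes had a pooled summit (48.3%). With only pooled regions above the median signal, tRNA genes beside a coding TSS had 50%, against 29.5% of other genes. Away from coding TSSs, tRNA genes had 18.6%, against 12.2%. Of tRNA genes with a pooled summit, 10 of 23 beside a coding TSS had an optimal one (43.5%), against 42.2% of other genes. Away from coding TSSs 11 of 116 did (9.48%), against 29.3%. Of the 17 distinct optimal summits near tRNA genes, 7 had no coding TSS within 500 bp of the summit itself (41.2%), against 66.1% of the other optimal summits.

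The replicates differed in how many tRNA genes they marked. In the full lists, a summit lay near 86 tRNA genes in replicate 1 (29.7%), 154 in replicate 2 (53.1%) and 102 in replicate 3 (35.2%). The mean share was 39.3 ± 12.3% (SD, n = 3). For other genes the shares were 38.3%, 39.9% and 38.8%, a mean of 39.0 ± 0.848% (SD, n = 3). The difference of tRNA minus other genes averaged 0.321 ± 11.4 percentage points (SD, n = 3), far within its spread over replicates, and it was above 0 in replicate 2 and below 0 in replicates 1 and 3. Without replicate 2, the tRNA share averaged 32.4%. Other noncoding genes had 28.1%, 28.2% and 28.5%, below tRNA genes in each replicate. A summit stood near 49 tRNA genes in all 3 lists (16.9%), against 24.9% of other genes. Within the split the order was the other way. Beside a coding TSS it was 40.6% of tRNA genes against 27.7%, and away from one 13.95% against 12.5%.

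Among genes without a coding TSS nearby, the full lists of all 3 replicates put tRNA genes higher. The shares were 26.7%, 50.8% and 32.6% of tRNA genes in replicates 1, 2 and 3, against 23.7%, 23.4% and 24.3% of other genes. The difference averaged 12.9 ± 12.8 percentage points (SD, n = 3), about as large as its spread, with 27.3 points in replicate 2, 8.25 in replicate 3 and 3.05 in replicate 1. Beside a coding TSS, it averaged 17.98 ± 8.96 points (SD, n = 3) and was above 0 in each replicate.

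With each replicate reduced to its 7096 strongest regions, as many as the optimal list holds, tRNA genes as a whole were marked less often than other genes, while those beside a coding TSS were marked more often. The counts were 14, 29 and 19 tRNA genes in replicates 1, 2 and 3, or 4.83%, 10% and 6.55%, against 15.7%, 14.8% and 16.7% of other genes. The difference averaged −8.62 ± 3.32 percentage points (SD, n = 3) and was below 0 in all 3 replicates. Other noncoding genes had 7.89%, 8.82% and 8.33%, so against these tRNA genes were lower in replicates 1 and 3 and higher in replicate 2. Away from coding TSSs, the shares of tRNA genes were 2.33%, 7.36% and 3.10%, against 6.20%, 6.93% and 6.42% of other genes, and the mean difference of −2.25 ± 2.34 points (SD, n = 3) was within its spread. Beside a coding TSS the difference was 7.12, 14.6 and 15.3 points in replicates 1, 2 and 3, a mean difference of 12.4 ± 4.56 (SD, n = 3), from 32 tRNA genes. There the tRNA shares were 25%, 31.25% and 34.4%, and those of other noncoding genes 15.2%, 17.3% and 16.9%.

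**Figure D1:**
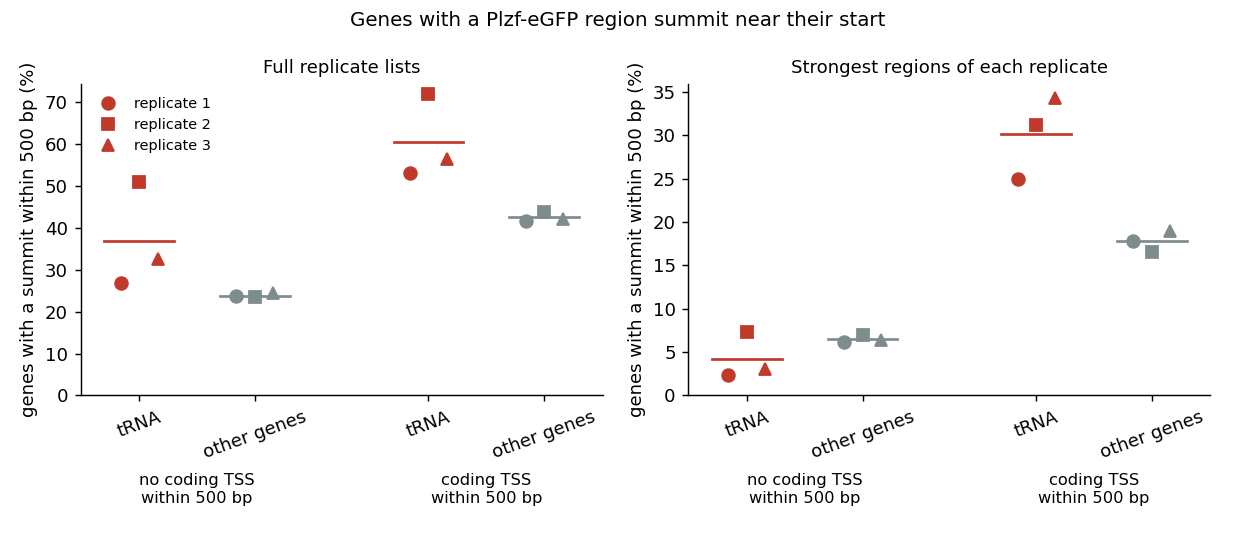
Share of genes (%) with a region summit within 500 bp of the start in each replicate, for tRNA genes and other genes, split by whether a coding TSS lay within 500 bp; points are replicates and lines their means, for full lists (left) and the strongest regions (right). In the full lists tRNA genes away from coding TSSs sat at 26.7 to 50.8%, with replicate 2 highest, while other genes sat at 23.4 to 24.3%.

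The position of summits around tRNA starts separated replicate 2 from the others. In the 250 bp before and the 250 bp after the start, replicate 2 had 24.5 and 20 summits per 100 tRNA genes. Replicate 1 had 9.31 and 5.86, and replicate 3 had 10.3 and 8.97. The density within 250 bp of the start divided by that at 1000 to 2000 bp was 0.859 in replicate 1, 2.10 in replicate 2 and 1.03 in replicate 3. Its mean was 1.33 ± 0.672 (SD, n = 3). Without replicate 2 the mean ratio was 0.943, so over all 290 genes a ratio well above 1 was seen in the list of replicate 2, while those of replicates 1 and 3 were near 1. The pooled list had a ratio of 1.78 and the optimal list, with 9 summits in the inner window, 0.766.

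Starts of protein-coding genes gave ratios of 3.08, 3.47 and 3.05 in replicates 1, 2 and 3, so all replicates had summits concentrated there. Replicate 2 also had more summits just downstream of coding starts, 14.3 per 100 genes in the first 250 bp against 9.36 and 9.49 in replicates 1 and 3. The part of these features of replicate 2 in the tRNA result was not tested.

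The 76 tRNA genes with no other tRNA gene within 5000 bp had ratios of 1.39, 2.13 and 1.12 in replicates 1, 2 and 3, from 16, 24 and 12 summits within 250 bp of a start. Flanks of tRNA genes held more summits than the arms on average. At 1000 to 2000 bp from the start the density was 1.58, 1.89 and 1.68 times the mean of the arms in replicates 1, 2 and 3, and for the 76 single genes it was 1.35, 1.32 and 1.26 times. In a cluster, the flank of 1 tRNA gene can be the start of the next.

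**Figure D2:**
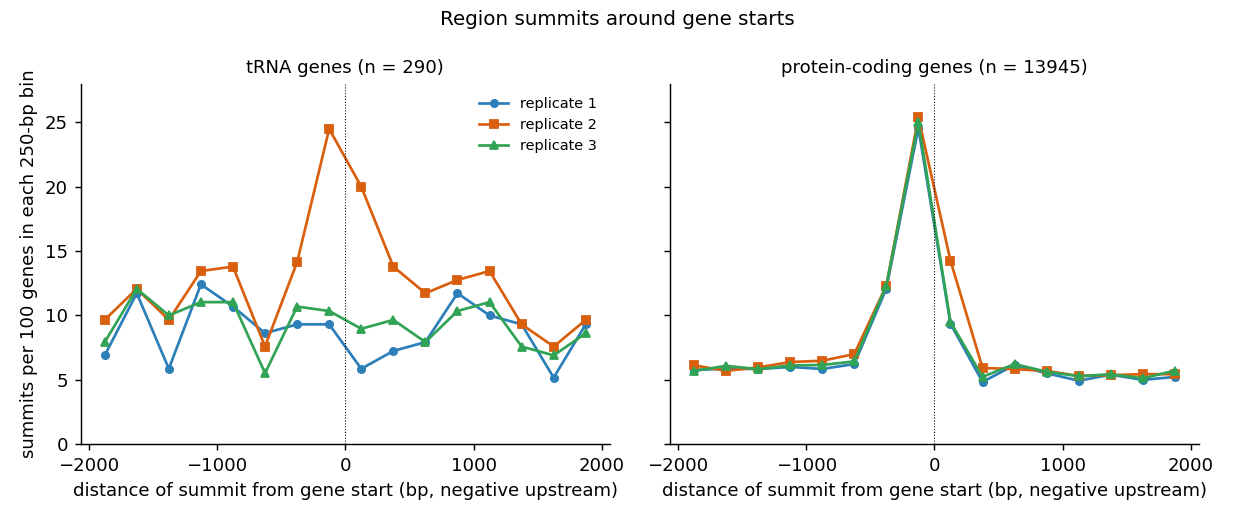
Region summits per 100 genes in 250-bp bins by distance from the gene start (bp, negative upstream), in the full list of each replicate, for tRNA genes (left) and protein-coding genes (right). Replicate 2 reached 24.5 just before tRNA starts where replicates 1 and 3 stayed at 9.31 and 10.3, while just before coding starts all 3 replicates had 24.6 to 25.4.

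The pooled regions near tRNA genes repeated less often than other pooled regions in replicates 1 and 3, but not in replicate 2. They had 111 distinct summits, 47 of them near more than 1 tRNA gene. A summit of replicate 1, 2 and 3 lay within 100 bp of 42.3%, 69.4% and 40.5% of these, against 61.6%, 69.2% and 58.8% of the other pooled summits. All 3 replicates matched 16.2% of them, against 34.4% of the others, and replicate 2 alone matched 26.1%, against 13.5%. Below the optimal list, the shares for replicates 1, 2 and 3 were 35.1%, 67.0% and 30.9% near tRNA genes and 51.1%, 60.9% and 47.6% elsewhere. There the share near tRNA genes was lower in replicates 1 and 3 and higher in replicate 2. By gene, 48 of 290 tRNA genes had a summit in replicate 2 alone (16.6%), against 6.18% of other genes. Replicate 1 alone marked 12 (4.14%, against 4.88% of other genes) and replicate 3 alone 11 (3.79%, against 5.67%). Of the 48 marked in replicate 2 alone, 32 were marked in the pooled list. No replicate had a summit near 108 tRNA genes (37.2%), against 45.6% of other genes.

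The strongest pooled region near a marked tRNA gene had a median signal of 34.4, with a range of 17.2 to 816. The median was 65.8 for protein-coding genes and 43.7 for other noncoding genes, and 36.8 over the whole pooled list. Marked tRNA genes beside a coding TSS had a median of 51.7, and those away from one 33.7.

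**Figure D3:**
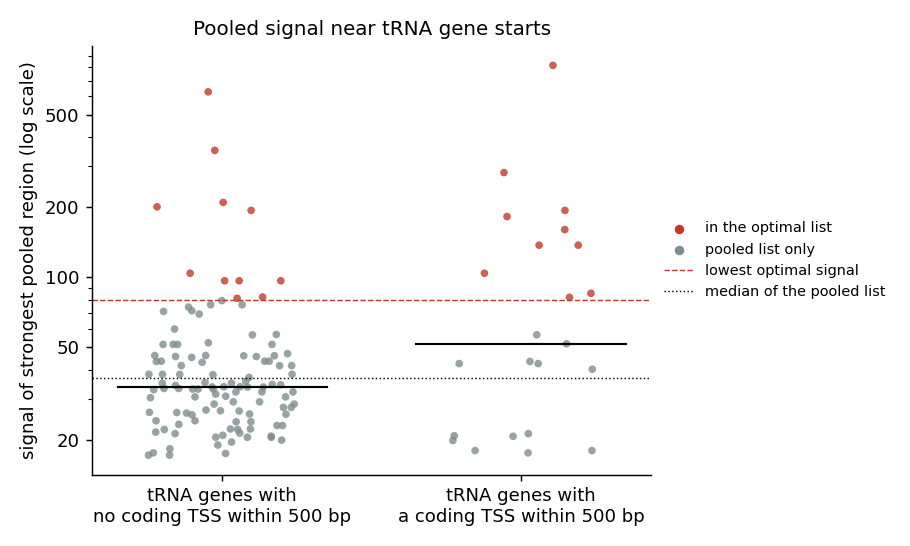
Signal (log scale) of the strongest pooled region within 500 bp of each of the 139 marked tRNA genes, split by whether a coding TSS lay within 500 bp; points are genes, solid lines medians, and the dashed and dotted lines the lowest optimal signal of 79.6 and the pooled list's median of 36.8. Most genes lie below the optimal limit, and genes that share a region repeat its value.

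Positions were then counted for the 17 optimal summits near tRNA genes. None of the 17 lay inside a tRNA gene, whereas 19 of the 111 pooled summits did. A gene of the median 73 bp fills a small part of the 500 bp on each side. Few of 17 summits would thus lie inside by position alone, and their absence says little. Optimal regions, as opposed to summits, overlapped 7 tRNA genes. Of the 21 genes, 13 had the nearest optimal summit upstream (61.9%), and 4 had it within 150 bp of the start (19.0%). For protein-coding genes 82.0% were upstream and 49.0% within 150 bp. The nearest pooled summit was upstream of 74 and downstream of 64 tRNA genes and at the start of 1, with a median of −27 bp.

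The strongest region, with a pooled signal of 816 and rank 166, had its summit 215 bp upstream of tRNA:Tyr-GTA-1-8 (3R, 8669081 to 8669174, − strand). Its signal was 191, 410 and 206 in replicates 1, 2 and 3. This gene lies within the annotated spans of p and CG8036, and the TSS of CG8036 was 444 bp from its start.

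The next, of signal 628 and rank 329, had its summit 205 bp upstream of tRNA:Gln-TTG-2-1 (X, 3427452 to 3427523, − strand), a single gene inside CG12535. Its signal was 160, 285 and 179 in replicates 1, 2 and 3. The nearest coding TSS was 8284 bp from the gene, so this was the tRNA gene of highest optimal signal away from coding TSSs. A region of signal 352 had its summit 350 bp after the start of tRNA:Lys-TTT-1-1 (2L, 8290727 to 8290799, + strand), which lies inside Btk on the opposite strand, with 93.5, 155 and 98.6 in replicates 1, 2 and 3. All 3 replicates held these 3 regions among their strongest 7096.

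A further 6 regions were held by all 3 replicates among their strongest. His-GTG-1-3 on 2R had a summit 140 bp upstream with a signal of 282, and its start was 250 bp from the TSS of CG8490. Pro-AGG-1-2 on 2L had one 399 bp upstream with a signal of 210, and its nearest coding TSS was 10625 bp away. Val-CAC-2-5 on 3R, inside Naam, had one 475 bp downstream with a signal of 201, and that summit was 424 bp from a coding TSS. The neighbours Asp-GTC-1-4 and Asp-GTC-1-5 on 2L, which differ in direction, shared a summit of signal 194 near the TSS of Sema1a. Phe-GAA-1-2 on X had one of signal 182 that was 36 bp from a coding TSS, with RpL17 the nearest coding gene, and Leu-TAA-2-1 on 3R one of signal 160, 206 bp upstream. Over replicates 1, 2 and 3, whose signals are on separate scales, the values were 78.4, 118 and 84.2 for His-GTG-1-3 and 60.01, 87.6 and 55.2 for Pro-AGG-1-2. They were 73.4, 71.9 and 36.2 for Phe-GAA-1-2 and 40.5, 79.5 and 31.6 for Leu-TAA-2-1.

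The other 8 optimal summits were weaker, with signals from 81.1 to 137, and repeated less. Trp-CCA-2-2 on 2R, with its neighbour Gly-GCC-1-9, had a pair of summits of signal 137 and 106, each matched within 100 bp in 2 replicates. Gly-GCC-1-13 and Trp-CCA-2-6, near tud on 2R, shared a summit of 104 that only replicate 2 matched within 100 bp. A region of signal 96.6 marked 3 glutamate tRNA genes inside mrj, with its summit 88 bp after the start of Glu-CTC-1-1 and a signal of 23.03, 42.8 and 14.9 over replicates 1, 2 and 3. The remaining 4 were near Thr-AGT-1-4 (85.3), Val-CAC-1-1 (82.2), Ile-AAT-1-8 (81.9) and Ala-AGC-2-8 (81.1). Of all 17, 11 were matched in all 3 replicates (64.7%), against 87.5% of the other optimal summits.

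At the limits of the rule, the outermost genes inside 500 bp were Asp-GTC-1-4 at 409 bp and Val-CAC-2-5 at 475 bp, and the first outside were Leu-CAA-2-2 on 3L at 519 bp from a summit of signal 149 and Pro-CGG-2-1 on X at 570 bp from one of 82.0. Below the optimal limit, the 5 strongest genes away from coding TSSs were Glu-TTC-1-5 (79.3), Arg-CCT-1-2 and Arg-CCT-1-3, which shared a region (76.1), Ala-TGC-2-1 (74.4) and Ser-AGA-2-4 (71.8). Glu-TTC-1-5 had a signal of 20.3, 40.0 and 20.6 within 500 bp in replicates 1, 2 and 3 and stood at pooled rank 7124, just past the 7096 optimal regions. Only replicate 2 had a summit within 100 bp of this pooled summit, so the values of replicates 1 and 3 come from other summits.

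By isotype, the share of genes with a pooled summit ran from 20% to 80% among isotypes of at least 5 genes. Histidine tRNA genes had the highest share, 4 of 5, and these 4 formed 1 cluster. Leucine had 16 of 22 (72.7%) and proline 12 of 17 (70.6%). Glycine had the lowest, 4 of 20, followed by lysine with 5 of 19 (26.3%). In the lists of replicates 1, 2 and 3, the numbers were 3, 4 and 3 for histidine, 8, 17 and 11 for leucine and 8, 12 and 8 for proline. They were 3, 6 and 3 for glycine and 6, 6 and 3 for lysine. Optimal summits were spread over 15 isotypes, with glutamate having most at 3 of 19. Arginine, the isotype with most genes, had 14 of 26 with a pooled summit and 0 with an optimal one, and serine had 10 of 20 and 0. The small numbers and shared regions allow no order among most isotypes.

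**Figure D4:**
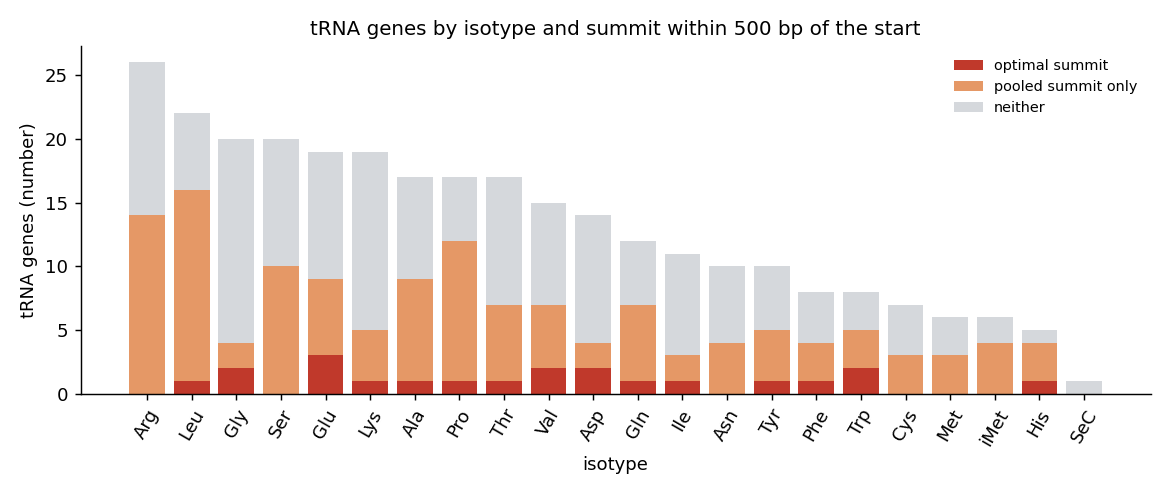
Number of tRNA genes of each isotype with an optimal summit, with a pooled summit only and with neither within 500 bp of the start; bar height is the number of genes. Leucine (16 of 22) and glycine (4 of 20) differ in the share with a pooled summit, while no isotype has more than 3 genes with an optimal one.

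Genes in clusters, defined by starts at most 5000 bp apart, were more often near a pooled summit than single genes. There were 144 loci, of which 68 were clusters holding 214 genes. Of the clustered genes 114 (53.3%) had a pooled summit, against 25 of 76 single genes (32.9%), while optimal summits marked 14 clustered genes (6.54%) and 7 single ones (9.21%). By locus, 47 of 68 clusters (69.1%) and 25 of 76 single genes had a pooled summit, and 9 clusters (13.2%) had an optimal one. A cluster has more starts than a single gene, which bears on the count by locus. Genes of a cluster can share a summit, which bears on the count by gene. The 214 clustered genes were near 83 distinct pooled summits, and the 76 single genes near 28. By replicate, genes in clusters of at least 3 were marked in 44, 81 and 50 of 138 cases in replicates 1, 2 and 3, genes in pairs in 21, 45 and 30 of 76, and single genes in 21, 28 and 22 of 76, so the contrast was widest in replicate 2.

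The 2 largest clusters had 11 genes each. The one on 3R (17617761 to 17631750; alanine, proline, threonine and valine) had 5 genes with a pooled summit and 1, Val-CAC-1-1, with an optimal one. The one on 2R (6161535 to 6171759; arginine, asparagine, isoleucine and lysine) had 2 genes with a pooled summit and 0 with an optimal one. Next came 3 clusters of 7 genes, with 4, 6 and 4 genes near a pooled summit and 0 near an optimal one: isoleucine and leucine on 2R (13430282 to 13432794), glutamate and initiator methionine on 2R (19725620 to 19728958), and arginine and serine on X (14014814 to 14017284). Large clusters were thus covered in part: in the 10 clusters of at least 5 genes, 35 of 72 genes had a pooled summit and 1 had an optimal one. The histidine cluster of 4 genes on 2R (12333926 to 12336489) had all 4 marked, by 5 pooled summits, of which 1 was optimal.

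**Figure D5:**
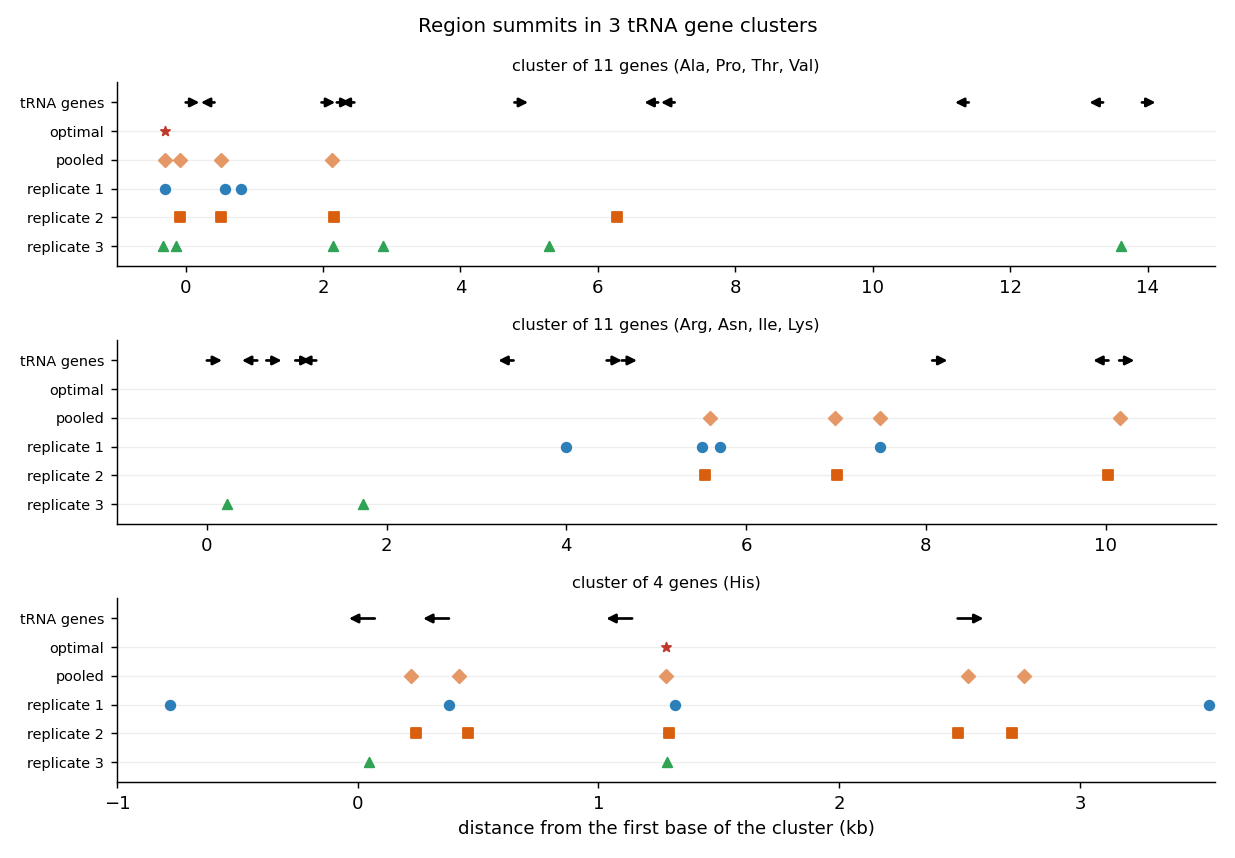
Maps of 3 tRNA gene clusters by distance from the first base of the cluster (kb); arrows are genes pointing along their strand, drawn longer than the genes, and symbols are summits in each list. Optimal summits occur at 1 place in the clusters of alanine, proline, threonine and valine and of histidine, and at none in the cluster of arginine, asparagine, isoleucine and lysine.

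Copy number, place and arm were counted in the same way. Genes whose sequence occurs once were near a pooled summit in 26 of 52 cases (50%) and an optimal one in 6, genes with 2 to 4 identical copies in 33 of 58 (56.9%) and 0, and genes with at least 5 in 80 of 180 (44.4%) and 15. How reads shared by identical copies were handled is not given in the sources used here. Outside protein-coding genes 83 of 156 tRNA genes (53.2%) had a pooled summit, and inside them 56 of 134 (41.8%). By arm the share ran from 33.3% on X to 55.1% on 2R, and on 3L none of 48 genes had an optimal summit.

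At the summits themselves, GC content within 50 bp averaged 36.7 ± 6.85% (SD, 17 summits) at optimal summits near tRNA genes and 33.2 ± 8.96% at the others. At pooled summits it was 39.8 ± 10.1% (SD, 111 summits) near tRNA genes and 38.4 ± 10.3% at the others. Both differences were within 1 SD. The B box core, on either strand, stood within 50 bp of 25 of 111 pooled summits near tRNA genes (22.5%), against 2.84% of the others, and 19 of the 111 lay inside a tRNA gene. At optimal summits it stood in 3 of 17 windows near tRNA genes (17.6%), against 2.54% of the others, and these 3 were near His-GTG-1-3, Trp-CCA-2-2 and Glu-CTC-1-1 on 2R. In the replicate lists it was found at 11.1%, 20.9% and 16.5% of the summits near tRNA genes in replicates 1, 2 and 3. These summits were chosen for nearness to genes of which 93.4% carry the core. A higher share than at other summits follows from that choice, so the comparison cannot show a link between the regions and the B box.

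The genes that make and use tRNAs were counted at any of their TSSs. Of 39 protein-coding genes in the list, 15 had an optimal summit (38.5%), against 19.8% of all protein-coding genes, and 22 had a pooled one (56.4%), against 42.8%. Of the 4 genes of TFIIIB, Bdp1 and Brf had optimal signals of 628 and 498, and Tbp and Trf had no pooled summit. Bdp1 had 198, 156 and 266 in replicates 1, 2 and 3, at ranks 277, 958 and 116, so replicate 2 ranked it lowest. Of 12 subunits of RNA polymerase III, Polr3E (420) and Polr1D (91.2) had an optimal summit and 7 had a pooled one. Among genes that process or control tRNA, RNaseZ, which trims the 3′ end, had 129 and La, which binds the 3′ end of new transcripts, had 79.6, and Maf1, a repressor of the polymerase, had none. Of 20 aminoacyl-tRNA synthetases, which charge tRNAs with amino acids, 9 had an optimal summit, the strongest being SerRS (427), IleRS (315), GluProRS (308) and AsnRS (241). No gene of TFIIIC or TFIIIA was matched by the names searched.

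Genes of other small RNAs, listed by name as commonly transcribed by RNA polymerase III, were counted in the same way. None of 96 annotated 5S rRNA genes, which are near-identical repeats, and none of 4 annotated 5S pseudogenes had a summit in the pooled list. All 3 genes of U6, an snRNA of the spliceosome, had a pooled summit and 2 shared an optimal one of signal 82.7. The gene of U6atac, the U6 counterpart of the minor spliceosome, had none. Of 2 genes of 7SK, an RNA that restrains transcription elongation, 7SKa had an optimal signal of 173. The RNA of RNase MRP had a pooled signal of 74.3, and the genes of 7SL had no summit. The gene of the RNA of RNase P was listed by name only, and which polymerase transcribes it was not examined. It had no summit.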

How the data were processed

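The authors deposited narrowPeak region lists on dm3 and dm6; only dm6 was used here. They hold a signal per region (peak height, from the authors' caller), a −log10 q-value and a summit offset, per the file headers. A control entered the calling, per the notes deposited beside the lists. The sources used here name no aligner, caller, version or IDR threshold, and the labels give a sonication range of 200 to 800. The deposited −log10 q-value sat at a ceiling for many regions, so signal was used for rank within a list.

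Genes were taken from Ensembl release 115, and bases were read from RefSeq's copy of that assembly. Distances, clusters, motifs and Wilson 95% intervals were computed with Python 3.11.15, numpy 2.4.6, pandas 2.3.3 and scipy 1.17.1; the counting was tested on simulated summits. Replicates were matched within 100 bp. Tests were not run, since there is 1 group and genes share summits. The members and lists were chosen with earlier results of these data known.

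Named genes were those nearest the optimal summits within 500 bp (up to 20), the 5 of highest optimal and the 5 of highest pooled-only signal away from coding TSSs, the largest clusters, genes at the 500 bp limit, isotypes with the highest and lowest share, and up to 4 pathway genes per group. For sequences, genes on 2R were left out.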

Additional observations from a re-analysis of the deposited data

Results flagged for a closer look

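The list of replicate 2 held 6 regions on the mitochondrial genome, which enters no comparison of the report, while the lists of replicates 1 and 3, the pooled list and the optimal list held 0. The strongest had a signal of 768 and rank 19 in that list. Of the 22 mitochondrial tRNA genes, 6 had one of these summits within 500 bp of their start.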

How the results depend on the processing

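No paired analysis was possible because all 3 samples belong to 1 group. The 21 tRNA genes with an optimal summit became 8 within 250 bp, 35 within 1000 bp, 7 with regions that overlap the gene and 10 above the list's median signal. They became 10 to 13 when each replicate in turn was ignored and the deposited summits had to match in both others. For optimal summits the match was among the 7096 strongest regions of each replicate, and for pooled summits in its full list. No list was called again without a replicate. In the same order, the 139 with a pooled summit became 89 at 250 bp, 90 overlapping and 64 above the median, with 182 at 1000 bp. They became 30 to 50 without 1 replicate, a rule added after seeing the data, with 30 without replicate 2, 39 without replicate 3 and 50 without replicate 1. Leaving out a replicate in this way was not done for other genes, so these falls cannot be read as particular to tRNA genes. The 11 away from coding TSSs became 3, 24, 2 and 5 under the first 4 settings, 5 without any 1 replicate, 20 of 284 genes with a TSS distance of 250 bp and 7 of 211 with 1000 bp. The mean replicate share of 39.3% became 7.13% for the strongest regions, 23.6% at 250 bp, 56.2% at 1000 bp and 32.4 to 44.1% without 1 replicate. The 9 clusters with an optimal summit became 5 at 250 bp and 9 to 13 otherwise. The mean ratio of centre to flank of 1.33 was 0.943 to 1.56 without 1 replicate, the lowest without replicate 2; this and its other settings (1.31, 1.55 and 1.195) were added after seeing the data. Optimal shares of tRNA genes as a whole stayed below those of other genes at 250 bp (2.76% against 11.1%) and 1000 bp (12.1% against 19.9%). The same was true away from coding TSSs (1.16% against 3.72%, and 9.30% against 12.95%). Beside a coding TSS they stayed above (15.6% against 12.8%, and 34.4% against 21.5%). Beyond the widening or narrowing that a setting itself makes, the cause was not tested. Read depth is unknown, and a list capped at 30000 regions says nothing of weaker ones.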
